A study of Mus musculus with 88 samples.

Results

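The genes described here are 8 secreted antagonists of Wnt signalling, Sfrp1, Sfrp2, Sfrp4, Sfrp5, Frzb, Dkk2, Dkk3 and Wif1, taken by gene name from a table of 24453 mouse genes. All 8 were in the table. They were chosen by name from their measured levels across tissues. In those levels the means of Sfrp2 and Sfrp4 were lower in soleus than in each other muscle. Tissue levels and the soleus difference are therefore given as a description without a test. Differences among the other 3 muscles were tested, with the same levels in view. RNA sequencing counts came from 9 tissues of 10 male C57BL/6NTac mice aged 65 to 85 days, all fasted for 18 h before sampling: heart, kidney, liver, lung, spleen and 4 hindlimb muscles, namely tibialis, soleus, gastrocnemius and extensor digitorum longus (EDL). Of these mice, 5 were Cdh15 knockout (KO) and 5 were wild type (WT), and each library is of 1 tissue of 1 mouse. Cdh15 encodes M-cadherin, a cell adhesion protein of muscle. No source used here describes how the KO allele was made, and the labels do not limit it to any tissue. The 88 libraries fall into 18 groups of tissue and genotype with n = 5, except WT kidney and WT spleen with n = 4, since WT kidney of mouse 3793543 and WT spleen of mouse 3805657 were not analysed here.

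Wnt proteins are secreted signals that bind Frizzled receptors and, in the branch that stabilises beta-catenin, the co-receptors Lrp5 and Lrp6. Secreted frizzled-related proteins (Sfrp1, Sfrp2, Sfrp4, Sfrp5 and Frzb, which is also called Sfrp3) carry a domain like the Wnt-binding part of Frizzled and bind Wnts outside the cell. Wif1 also binds Wnts, through a domain of its own. Dickkopf proteins act on the co-receptors instead: Dkk2 binds Lrp5 and Lrp6, while Dkk3 is a divergent family member whose binding partners are less settled. Many of these genes are known from connective tissue cells, which in muscle lie between the fibres.

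The deposited counts summed to 8.21 M to 25.1 M per library (M, mega), with a median of 19.02 M. Levels below are counts scaled to a library total of 1 M (CPM), and the limit that 3 reads allow was at most 0.366 CPM in any library. The targeted gene matched the genotype labels in the muscles: single libraries held 11.7 to 23.0 CPM of Cdh15 in WT muscles and 1.06 to 4.06 CPM in KO muscles. In the other 5 tissues no library held more than 0.144 CPM of Cdh15, so it cannot check the labels there. Summed slow fibre markers were 4760 to 21784 CPM in soleus libraries and 42.2 to 487 CPM in the other 3 muscles. Fast fibre markers nevertheless summed higher than slow fibre markers in every soleus library, to 59735 to 98320 CPM in WT soleus and 23344 to 71287 CPM in KO soleus, and the WT range overlapped that of WT tibialis (89290 to 102265 CPM). Heart, liver, kidney, lung and spleen were each led by their own marker list. One library stood apart within its label. The KO soleus of mouse 3805666 had 89.7 CPM of Myh4, the fast type IIb myosin heavy chain, against 27368 to 38378 CPM in the other 4 KO soleus libraries and 28331 to 65547 CPM in WT soleus. Soleus results are therefore given with and without that mouse where it moved them.

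In the mouse genome (mm10), the 8 loci lie on 7 chromosomes, and no other annotated gene overlaps any of them. Sfrp1 is at chr8:23411502-23449632 on the plus strand with 3 exons, Sfrp2 at chr3:83766321-83774314 on the plus strand with 3 exons, and Sfrp4 at chr13:19623175-19632823 on the plus strand with 6 exons. Sfrp5 is at chr19:42197971-42202252 on the minus strand with 3 exons, and Frzb at chr2:80411970-80447396 on the minus strand with 6 exons. Dkk2 shares chromosome 3 with Sfrp2, at chr3:132085292-132180304 on the plus strand with 4 exons. Dkk3 is at chr7:112116019-112159057 on the minus strand with 8 exons, and Wif1 at chr10:121034004-121100642 on the plus strand with 10 exons. The deposited values are 1 count per gene and do not separate the parts of a locus.

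The members Sfrp5, Wif1, Sfrp2 and Dkk2 are shown with the 250 bases before their annotated start, because their levels form the contrasts described below: Sfrp5 and Wif1 had like levels across the tissues, and Sfrp2 and Dkk2 stood at opposite ends in soleus. The sequences are RefSeq's for GRCm38.p6, 5′ to 3′ in the direction of the gene, and entries matched 5 of the 8 members. Capitals mark matches on either strand to 5 short motifs. These were the TATA box with the letters TATAAA, the CCAAT motif, the GC box spelled GGGCGG, the E-box spelled CANNTG, and a motif of the TCF and LEF factors downstream of beta-catenin, spelled ATCAAAG.
Sfrp5, chr19:42202253-42202502, minus strand: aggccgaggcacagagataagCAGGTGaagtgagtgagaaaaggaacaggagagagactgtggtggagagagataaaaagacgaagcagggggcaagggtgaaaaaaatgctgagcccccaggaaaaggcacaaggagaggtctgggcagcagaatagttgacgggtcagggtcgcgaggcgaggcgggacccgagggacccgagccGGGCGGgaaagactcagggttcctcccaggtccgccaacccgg
Wif1, chr10:121033754-121034003, plus strand: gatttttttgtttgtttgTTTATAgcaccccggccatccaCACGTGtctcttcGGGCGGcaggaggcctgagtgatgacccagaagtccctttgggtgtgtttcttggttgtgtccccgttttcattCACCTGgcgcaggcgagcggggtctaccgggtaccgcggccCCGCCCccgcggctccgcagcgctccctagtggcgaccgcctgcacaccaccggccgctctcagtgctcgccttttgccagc
Sfrp2, chr3:83766071-83766320, plus strand: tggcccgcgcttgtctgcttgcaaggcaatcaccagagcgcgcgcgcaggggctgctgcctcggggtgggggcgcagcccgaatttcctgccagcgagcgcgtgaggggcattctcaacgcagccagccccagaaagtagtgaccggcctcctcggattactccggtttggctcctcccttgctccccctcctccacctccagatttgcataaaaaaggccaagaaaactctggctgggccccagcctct
Dkk2, chr3:132085042-132085291, plus strand: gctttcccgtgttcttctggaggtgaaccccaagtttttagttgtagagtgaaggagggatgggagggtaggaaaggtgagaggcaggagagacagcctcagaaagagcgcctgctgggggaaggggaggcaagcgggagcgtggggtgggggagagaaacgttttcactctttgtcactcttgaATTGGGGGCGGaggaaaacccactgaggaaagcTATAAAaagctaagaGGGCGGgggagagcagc
The Sfrp5 window held 1 E-box and 1 GC box, and the Wif1 window held 2 E-boxes, 2 GC boxes and a TATA motif on the opposite strand. The Dkk2 window held a TATA motif 32 bases before the start, 2 GC boxes, and a CCAAT motif on the opposite strand that runs directly into the farther GC box. The Sfrp2 window held none of the 5. Among all 32851 windows of this length in the table, 66.2% held an E-box, 33.8% a CCAAT, 32.7% a GC box, 12.4% a TATA motif and 3.21% the TCF and LEF motif. Sfrp2 had 16 CpG dinucleotides, Sfrp5 13, Wif1 21 and Dkk2 7, against a median of 6 in all windows, and their GC content was 63.6%, 59.6%, 62.8% and 55.6% against a median of 52.4%. A match is only a run of letters, and no measurement of binding or methylation was used here.

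Across the 9 tissues, the 8 antagonists divided by organ. Sfrp1 and Frzb led in spleen and kidney, Dkk3 in lung and heart, Dkk2 in kidney and soleus, Sfrp4, Sfrp5 and Wif1 in skeletal muscle, and Sfrp2 in lung at a low level, while liver held little of any. The deposited length-scaled values (RPKM, reads per kilobase of exon, scaled to library size) allow genes to be compared with each other. On that scale the 8 summed to a mean of 0.991 RPKM in WT liver and 0.995 RPKM in KO liver. In every other group the mean sum was between 15.8 and 29.97 RPKM. Dkk3 made up 60.4% of that sum in WT lung, 49.1% in WT heart and 48.3% of the small sum in WT liver. Sfrp1 and Frzb made up 39.4% and 38.2% in WT spleen, and Sfrp1 led WT kidney with 28.7%. Sfrp5 led WT EDL with 29.2%, WT gastrocnemius with 28.0% and WT soleus with 27.5%, whereas Sfrp4 led WT tibialis with 32.4%. In KO soleus the leading member was Dkk2, with 33.1% of the sum. That lead rested on mouse 3805666, whose soleus held 44.4 CPM of Dkk2 and 8.64 CPM of Sfrp5. Without that mouse Sfrp5 led KO soleus too.

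**Figure D1:**
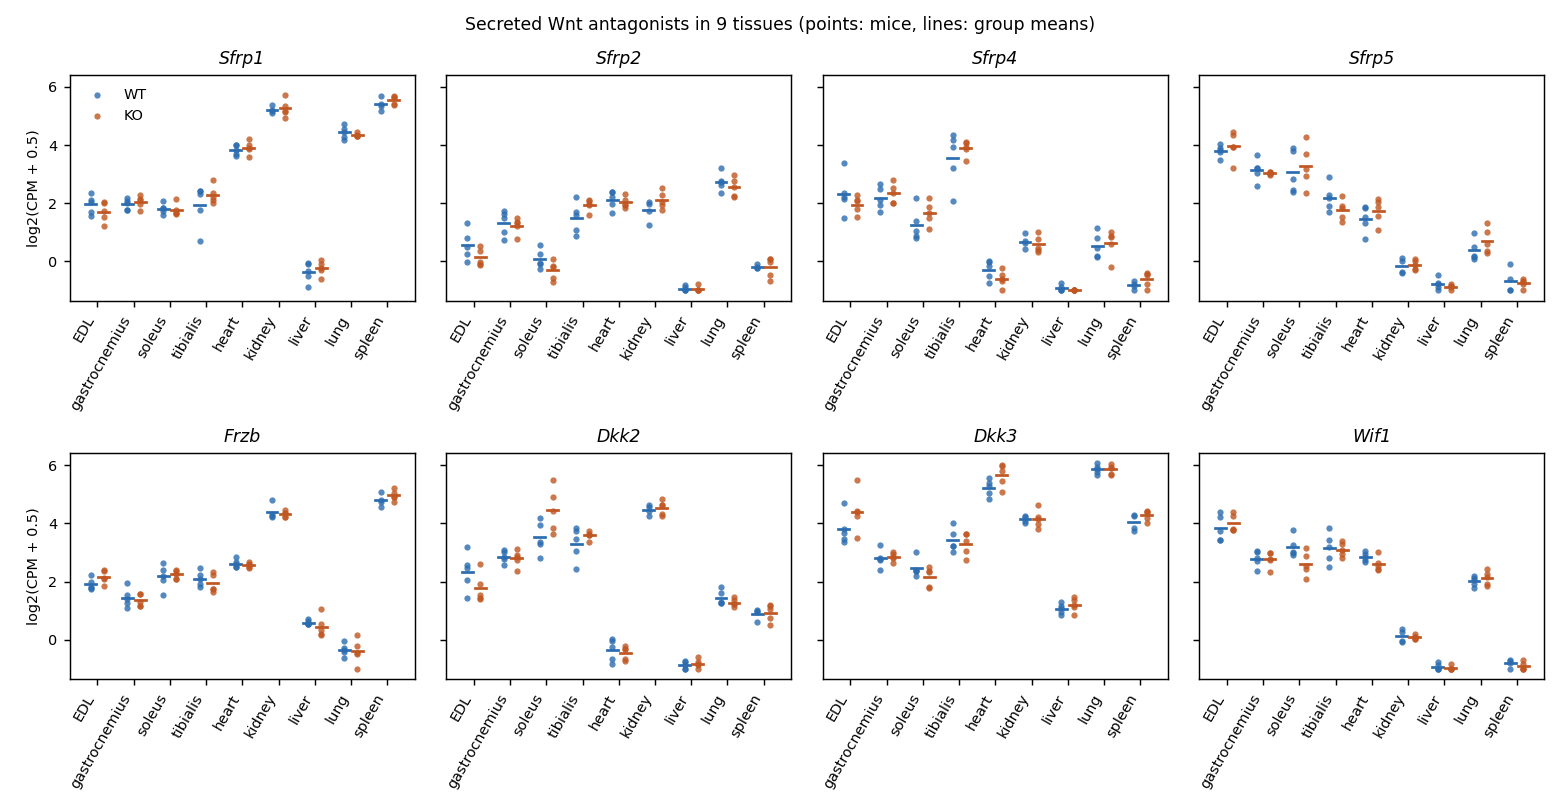
Levels of the 8 antagonists in 9 tissues, 1 panel per gene, as log2(CPM + 0.5). Points are mice, lines are group means, WT is blue and KO orange; Sfrp1 and Frzb are high in spleen and kidney, Dkk3 in lung and heart, and all 8 are low in liver.

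Sfrp1 was highest in WT spleen, at 42.4, 35.5, 51.0 and 40.1 CPM in the 4 libraries, and in WT kidney, at 40.6, 36.3, 35.6 and 33.7 CPM. Those ranges overlapped. Lung followed with 21.4 ± 3.34 CPM (SD, n = 5) and heart with 13.8 ± 1.69 CPM, each apart from its neighbours in the order. The 4 WT muscles had means of 3.04 CPM (soleus) to 3.63 CPM (tibialis) with overlapping ranges, and liver had 0.293 CPM. KO spleen (40.9 to 51.0 CPM) and KO kidney (30.1 to 51.9 CPM) covered the same span.

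Frzb was 33.1, 26.1, 23.0 and 27.3 CPM in WT spleen and 19.7, 27.4, 18.2 and 18.6 CPM in WT kidney. One kidney library, of mouse 3817948, lay inside the spleen range and the other 3 lay below it. Frzb was lower in heart, at 5.66 CPM, and in soleus, tibialis, EDL and gastrocnemius, at 4.16, 3.84, 3.29 and 2.28 CPM. Lung set Frzb apart from Sfrp1: its mean Frzb level was 0.294 CPM, below liver at 1.01 CPM.

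Dkk3 was 57.9, 50.7, 66.7, 61.5 and 53.6 CPM in WT lung and 38.4, 32.8, 46.4, 41.5 and 28.4 CPM in WT heart. The lowest lung library stood above the highest heart library. WT kidney had 17.2 CPM, WT spleen 16.1 CPM, and the WT muscles ran from EDL, at 14.3 ± 6.27 CPM, to soleus, at 5.14 ± 1.40 CPM. Dkk2, the Lrp5 and Lrp6 ligand of the set, had its highest WT mean in kidney, at 24.0, 23.0, 21.0 and 18.6 CPM. Soleus was next, at 11.7 ± 4.56 CPM, with its highest library below the lowest kidney library. In heart every Dkk2 library of either genotype was at 0.506 CPM or less.

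Sfrp5 and Wif1 were the muscle pair of the set. WT Sfrp5 was highest in EDL, at 13.6 ± 1.91 CPM, followed by soleus (8.79 ± 4.67), gastrocnemius (8.62 ± 2.44) and tibialis (4.25 ± 1.61), and heart had 2.37 CPM. WT Wif1 was also highest in EDL, at 14.4 ± 4.70 CPM, and then ran 8.89 ± 3.42 in tibialis, 8.84 ± 2.59 in soleus, 6.74 ± 0.802 in heart and 6.44 ± 1.26 in gastrocnemius, all with overlapping neighbours. In kidney, spleen and liver no library of either gene reached 1 CPM. Sfrp4 was highest in WT tibialis, at 12.96 ± 6.64 CPM, and lower in EDL (4.95 ± 2.85), gastrocnemius (4.16 ± 1.25), soleus (2.05 ± 1.15), kidney (1.12) and lung (1.01). In KO liver Sfrp4 was listed at 0 in all 5 libraries, which allows levels of up to 0.134 to 0.262 CPM by library.

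Sfrp2 was low everywhere. Its WT mean was 6.28 ± 1.53 CPM in lung, 3.94 in heart, 2.94 in kidney, 2.47 ± 1.10 in tibialis, 2.09 ± 0.718 in gastrocnemius, 1.06 ± 0.581 in EDL, 0.583 ± 0.259 in soleus and 0.380 in spleen, and each tissue overlapped the next in that order. Neighbours therefore did not separate, although the ends of the series did. KO mice gave the same order for lung, then kidney (3.895), heart (3.61), tibialis (3.35 ± 0.512), gastrocnemius (1.87 ± 0.398) and EDL (0.616 ± 0.232), with spleen (0.395) and soleus (0.328 ± 0.183) last above liver.

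Differences among the 3 muscles other than soleus were not the contrast on which the genes were chosen, although the levels in these muscles were in view when they were. The tests below are therefore not independent of the choice. Counts of members called are given beside the shares of all genes and are not read as an excess over them. EDL and tibialis, both of the front of the lower leg, and gastrocnemius, the main calf muscle, are predominantly fast. In WT mice Dkk3 and Wif1 were higher in EDL than in gastrocnemius, Sfrp5 was higher in EDL and gastrocnemius than in tibialis, Sfrp4 and Frzb were higher in tibialis than in gastrocnemius, and Sfrp2 and Dkk2 were higher in tibialis than in EDL. Each of these 8 WT calls was also made in KO mice, in the same direction. The share of all genes called in WT that were also called in KO was not counted. More of all genes were called in KO in each comparison, so the repeat is not read as particular to the members. Each comparison was tested over all genes with edgeR's quasi-likelihood test and Benjamini-Hochberg adjustment, with 0.05 as the threshold, separately for WT and KO. Within a genotype the 3 comparisons share libraries and are not independent of each other. The 15 libraries of a fit come from 5 mice with 3 muscles each. A fit with the mouse as a block is named below where it changed a call.

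In WT mice 2 of the 8 members were called between EDL and gastrocnemius, where 13.4% of all genes tested were called. Between EDL and tibialis 3 of 8 were called, against 12.3% of all genes. Between gastrocnemius and tibialis 3 of 8 were called, against 21.5%. In KO mice the counts were 8 of 8 between EDL and gastrocnemius (28.4% of all genes), 7 of 8 between EDL and tibialis (18.9%), and 5 of 8 between gastrocnemius and tibialis (34.2%). With the mouse as a block the WT counts became 4, 5 and 3, and the KO counts 7, 7 and 5. The block also raised the number of all genes called in each WT comparison, as given in the last section. The KO totals with the block are not given here. These blocked counts therefore cannot be set against the shares above. The median member log2 fold changes in WT were 0.32, −0.17 and −0.46 in that order of comparisons, with 0.01, −0.01 and −0.01 over all genes. The KO medians were 0.18, −0.30 and −0.57 with 0.02, −0.01 and −0.01 over all genes. The medians hide members that went opposite ways, which the single genes show.

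**Figure D2:**
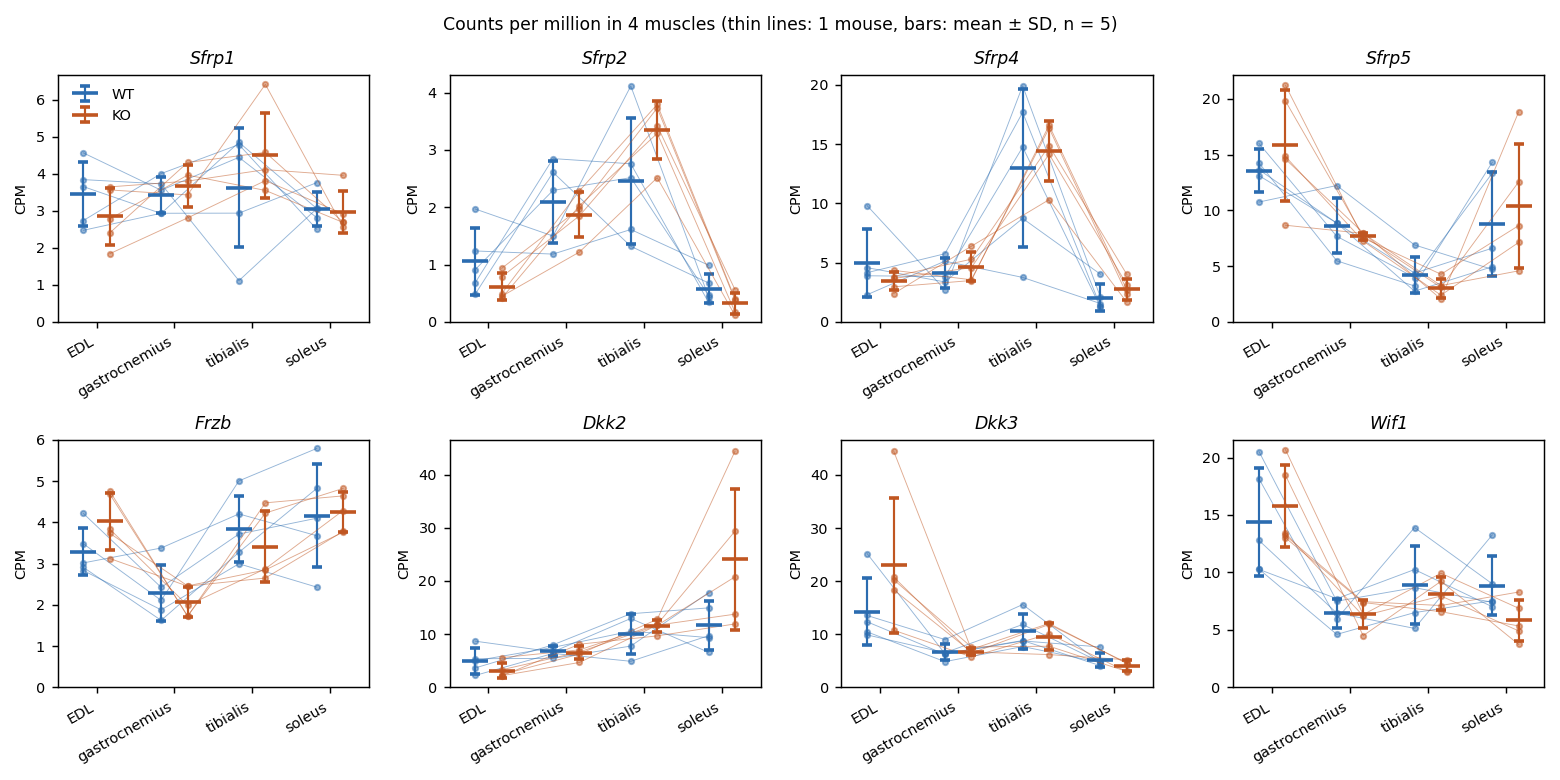
CPM of the 8 antagonists in EDL, gastrocnemius, soleus and tibialis. Thin lines join the muscles of 1 mouse, bars are the mean ± SD of 5 mice, WT is blue and KO orange; Sfrp5 falls from EDL to tibialis while Sfrp2 and Sfrp4 are higher in tibialis than in EDL in each mouse.

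Sfrp5, which binds Wnts and is also known from adipose tissue, gave the most even pattern. It was 16.0, 13.1, 14.3, 13.6 and 10.7 CPM in WT EDL and 3.99, 2.76, 3.23, 4.38 and 6.91 CPM in WT tibialis, each list in the order of mice 3793543, 3805657, 3817948, 3805673 and 3793553. No tibialis library reached the EDL range, and EDL exceeded tibialis by a log2 fold change of 1.57 (SE 0.23, adjusted p = 0.000618). Gastrocnemius, at 7.68, 8.87, 5.48, 8.86 and 12.2 CPM, also exceeded tibialis in 5 of 5 mice, with a log2 fold change of 1.003 (SE 0.23, adjusted p = 0.00684).

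In KO mice Sfrp5 was 8.67, 14.8, 14.6, 19.8 and 21.2 CPM in EDL and 3.26, 2.40, 2.05, 3.10 and 4.28 CPM in tibialis, in the order of mice 3779417, 3793546, 3817943, 3805676 and 3805666. The ranges did not overlap, and the log2 fold change was 2.29 (SE 0.22, adjusted p = 8.26e-06). KO gastrocnemius was unusually even at 7.25 to 7.98 CPM. It lay below EDL (0.92 for EDL over gastrocnemius, SE 0.19, adjusted p = 0.00173) and above tibialis (1.36, SE 0.23, adjusted p = 0.000414). In WT the EDL to gastrocnemius difference of 0.56 was not called (adjusted p = 0.0918).

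Wif1 was 10.3, 20.5, 18.2, 10.3 and 12.8 CPM in WT EDL against 4.61, 7.49, 5.95, 7.71 and 6.46 CPM in WT gastrocnemius. The ranges did not overlap, and the log2 fold change was 1.08 (SE 0.25, adjusted p = 0.0116). Without mouse 3805657 the call was lost (adjusted p = 0.0544). KO mice gave 18.5, 13.02, 13.2, 20.7 and 13.4 CPM in EDL and 4.49 to 7.45 CPM in gastrocnemius, a log2 fold change of 1.18 (SE 0.15, adjusted p = 3.29e-05). KO EDL also exceeded KO tibialis by 0.86 (SE 0.16, adjusted p = 0.00108). The matching WT difference of 0.68 had an adjusted p of 0.0945 and was called with the mouse as a block, at 0.66 (adjusted p = 0.0408). Wif1 was higher in EDL than in each of the other two fast muscles in 5 of 5 mice of both genotypes.

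Dkk3 was likewise higher in EDL than in gastrocnemius in all 10 mice. WT values were 12.3, 25.2, 10.4, 13.5 and 9.86 CPM in EDL and 6.23, 6.33, 4.83, 8.99 and 6.50 CPM in gastrocnemius, a log2 fold change of 1.02 (SE 0.24, adjusted p = 0.0129). This call was lost without mouse 3793543 (adjusted p = 0.0586), and the fold change was 0.73 without mouse 3805657, whose EDL held 25.2 CPM. KO EDL ranged more widely, at 44.5, 20.3, 18.4, 20.8 and 10.8 CPM, against 5.72 to 7.59 CPM in gastrocnemius, with a log2 fold change of 1.64 (SE 0.33, adjusted p = 0.00239). Against KO tibialis the log2 fold change was 1.18 (SE 0.33, adjusted p = 0.0240), and the call was lost without mouse 3793546 (adjusted p = 0.0905), 3805676 (0.0728) or 3817943 (0.0837).

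Sfrp4 ran the other way, with its high end in tibialis. In WT tibialis it was 8.73, 17.7, 19.9, 14.7 and 3.76 CPM, against 3.38, 5.75, 2.72, 3.83 and 5.13 CPM in gastrocnemius. Mouse 3793553 had less in tibialis than in gastrocnemius and the other 4 had more. The log2 fold change of gastrocnemius over tibialis was −1.58 (SE 0.44, adjusted p = 0.0219). The call was lost without mouse 3793543 (adjusted p = 0.0767), 3805657 (0.0733) or 3805673 (0.0874). EDL was below tibialis in 5 of 5 WT mice, by −1.40, just short of the threshold at an adjusted p of 0.0500163, and with the mouse as a block it was called (−1.41, adjusted p = 0.0412).

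KO tibialis held 16.6, 10.3, 14.9, 16.3 and 14.2 CPM of Sfrp4, KO gastrocnemius 3.495, 6.39, 5.29, 3.56 and 4.58 CPM, and KO EDL 2.96, 2.39, 3.83, 4.35 and 3.67 CPM. Every tibialis library lay above every library of the other two muscles. On the log2 scale the fold change was −1.59 (SE 0.16, adjusted p = 3.08e-06) for gastrocnemius and −2.15 (SE 0.17, adjusted p = 3.71e-07) for EDL over tibialis. The EDL to gastrocnemius difference in KO, −0.56 (SE 0.18, adjusted p = 0.0266), was lost with the mouse as a block (adjusted p = 0.0525). It was also lost without mouse 3793546 (0.141), 3805666 (0.0793) or 3817943 (0.0947).

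Sfrp2 was lower in EDL than in tibialis in all 10 mice. WT values were 1.24, 0.686, 1.97, 0.915 and 0.487 CPM in EDL and 1.61, 2.76, 4.12, 2.52 and 1.32 CPM in tibialis, with a log2 fold change of −1.20 (SE 0.38, adjusted p = 0.0467). The WT groups overlapped, and the call was lost with no expression filter (adjusted p = 0.0623) and without mouse 3793543 (0.0776), 3793553 (0.0971), 3805657 (0.173) or 3805673 (0.173). KO values did not overlap: 0.448, 0.415, 0.785, 0.936 and 0.496 CPM in EDL against 2.52, 3.29, 3.42, 3.73 and 3.79 CPM in tibialis. The KO log2 fold change was −2.51 (SE 0.22, adjusted p = 5.47e-07).

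KO gastrocnemius, at 1.22 to 2.29 CPM of Sfrp2, lay between, above EDL by 1.68 on the log2 scale and below tibialis by 0.83. As coded, these were −1.68 (SE 0.22, adjusted p = 2.47e-05) and −0.83 (SE 0.19, adjusted p = 0.00236). In WT, EDL below gastrocnemius by −1.04 was not called (adjusted p = 0.0763) and was called with the mouse as a block (−1.12, adjusted p = 0.0436).

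Dkk2 followed Sfrp2 between these muscles. It was 5.37, 3.64, 8.67, 4.99 and 2.23 CPM in WT EDL and 7.75, 13.8, 12.9, 10.6 and 4.89 CPM in WT tibialis, lower in EDL in 5 of 5 mice. EDL over tibialis gave a log2 fold change of −1.03 (SE 0.32, adjusted p = 0.0472), and the call was lost with no expression filter (adjusted p = 0.0833) and without mouse 3793543 (0.123), 3805657 (0.213) or 3805673 (0.164). In KO mice it was 2.18, 2.13, 3.29, 5.58 and 2.39 CPM in EDL and 11.7, 9.67, 11.6, 11.8 and 12.8 CPM in tibialis. These did not overlap, with a log2 fold change of −1.96 (SE 0.21, adjusted p = 1.92e-05). KO EDL also lay below KO gastrocnemius (−1.18, SE 0.22, adjusted p = 0.000865), which lay below KO tibialis (−0.78, SE 0.20, adjusted p = 0.00643).

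Frzb was lower in gastrocnemius than in tibialis in all 10 mice. WT mice gave a log2 fold change of −0.71 (SE 0.19, adjusted p = 0.0129), from 1.62, 3.38, 2.11, 2.42 and 1.88 CPM in gastrocnemius and 3.27, 4.20, 5.01, 3.72 and 2.996 CPM in tibialis. In KO it was −0.69 (SE 0.18, adjusted p = 0.00722). The WT call was lost without mouse 3793543 (adjusted p = 0.0576) or 3817948 (0.0621), and the KO call without mouse 3805676 (0.0615). KO EDL exceeded KO gastrocnemius by 0.85 (SE 0.17, adjusted p = 0.00115), and in WT the value of 0.45 was called with the mouse as a block, at 0.46 (adjusted p = 0.0487).

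Sfrp1 separated the fast muscles least. It was called in none of the WT comparisons, where the log2 fold changes were −0.07, −0.08 and −0.01. In KO it was lower in EDL than in tibialis (−0.75, SE 0.18, adjusted p = 0.00675), at 1.85, 2.79, 2.41, 3.65 and 3.57 CPM against 3.82, 3.56, 4.59, 4.12 and 6.42 CPM, a call lost without mouse 3817943 (adjusted p = 0.0532). It was also lower in KO EDL than in KO gastrocnemius (−0.49, SE 0.18, adjusted p = 0.0481). That call was lost with no expression filter (adjusted p = 0.0520) and without mouse 3779417 (0.0658), 3793546 (0.136), 3805676 (0.0618) or 3817943 (0.248).

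**Figure D3:**
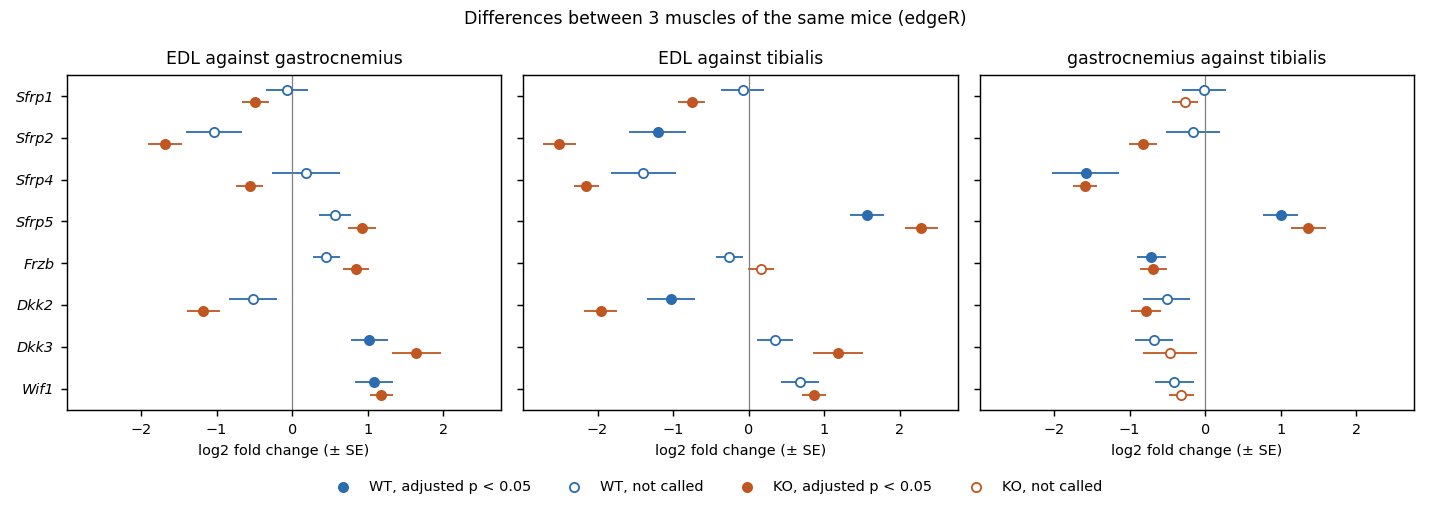
Log2 fold changes of the 8 antagonists between EDL, gastrocnemius and tibialis, ± SE, in WT (blue) and KO (orange). Filled symbols have an adjusted p under 0.05 (edgeR, all genes); for EDL over tibialis the values run from −2.51 for Sfrp2 to 2.29 for Sfrp5, both in KO.

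More members were called in KO than in WT, but the difference between the genotypes was itself not called. A fit over 30 libraries, added after the separate fits had been seen, tested whether each fold change between muscles differed between KO and WT. This fit had no mouse term, although each mouse gave 3 muscles, and was not repeated with one, so differences could be missed. With edgeR it called 0 of 13263 genes in each of the 3 comparisons, so 0% of all genes and 0 members. At an unadjusted p under 0.05, 3 members appeared, all for EDL over tibialis, where 3.17% of all genes did (3.02% for EDL over gastrocnemius and 1.59% for gastrocnemius over tibialis): Sfrp2 (−1.32, unadjusted p = 0.00739), Dkk2 (−0.94, unadjusted p = 0.028) and Sfrp5 (0.72, unadjusted p = 0.0401). Their adjusted p was 0.9998.

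In soleus, the muscle of the 4 with the highest slow fibre marker sums, 3 antagonists were low and 1, mainly in KO, was high. The choice of the genes used this difference, so the values that follow are a description. WT soleus held 0.583 ± 0.259 CPM of Sfrp2 against a mean of 1.87 CPM over the other 3 muscles, a ratio of 0.312, and KO soleus 0.328 ± 0.183 CPM against 1.95 CPM, a ratio of 0.169. The ratio for Sfrp4 was 0.279 in WT and 0.369 in KO, and for Dkk3 0.491 in WT and 0.308 in KO. Dkk2 was the exception in the other direction, with ratios of 1.61 in WT and 3.41 in KO. The ratios of the remaining members were closer to 1: 0.892 in WT and 0.577 in KO for Wif1, 0.868 and 0.808 for Sfrp1, 0.997 and 1.17 for Sfrp5, and 1.33 and 1.34 for Frzb. For Sfrp2 and Sfrp4 the mean of the other 3 muscles includes tibialis, the highest of them. EDL was nearer to soleus. It held 1.06 CPM of Sfrp2 in WT and 0.616 CPM in KO. For Sfrp4, EDL held 4.95 and 3.44 CPM, where soleus held 2.05 and 2.77 CPM. The soleus and EDL ranges overlapped for both genes in both genotypes.

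Single mice show how even these differences were. Sfrp2 in soleus was 0.991, 0.343, 0.438, 0.463 and 0.680 CPM in WT and 0.115, 0.175, 0.564, 0.382 and 0.405 CPM in KO. These rest on few reads, 7 to 15 in WT and 2 to 10 in KO libraries, and the lowest KO library lay under the limit of 3 reads. In 5 of 5 mice of both genotypes Sfrp2 was below the mean of that mouse's other 3 muscles, and it was below each of them in 4 of 5 WT and 5 of 5 KO mice.

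Sfrp4 in soleus was 4.03, 1.32, 2.09, 1.26 and 1.55 CPM in WT and 2.69, 1.66, 4.01, 2.34 and 3.15 CPM in KO. It was below the mean of the other 3 muscles in 5 of 5 mice of both genotypes, and below each of them in 4 of 5. Soleus overlapped EDL and gastrocnemius in both genotypes. It also overlapped tibialis in WT, through the lowest tibialis and the highest soleus library, and did not in KO. Dkk3 in soleus was 7.60, 4.07, 4.67, 4.63 and 4.71 CPM in WT and 4.47, 2.98, 5.19, 4.58 and 2.93 CPM in KO. Its lowest EDL library, at 9.86 CPM, was above every soleus library.

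Dkk2 in soleus was 17.8, 14.9, 6.58, 9.35 and 9.70 CPM in WT and 13.8, 11.9, 20.8, 29.4 and 44.4 CPM in KO. In KO it was above each of the other 3 muscles in 5 of 5 mice. In WT it was below tibialis in 2 of 5 mice, and in mouse 3817948 below each of the other 3 muscles. The highest of all, 44.4 CPM, came from mouse 3805666, the library with little Myh4. Without that mouse the KO log2 ratio of soleus to the other 3 muscles went from 1.77 to 1.43 for Dkk2, and was −2.61 for Sfrp2 and −1.49 for Sfrp4. Over all genes with a mean of at least 1 CPM, 0.456% were at most 1 in 2 of the other 3 muscles in WT soleus and 1.36% in KO soleus. At least 2-fold higher were 2.07% in WT and 5.87% in KO. Since the genes were chosen for this difference, their count is not read against those shares.

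In bulk tissue, fewer cells of a type and less RNA per cell cannot be told apart. Marker lists of the cell types that could carry these genes were therefore summed in each library. Fibroblast markers (12 of 12 genes measured, led by Gsn and Dcn) summed to 2674 to 4192 CPM in WT soleus, within the 2136 to 6018 CPM of WT tibialis, and to 2575 to 4316 CPM in KO soleus against 2747 to 4309 CPM in KO tibialis. The fibroblast marker sums of soleus and tibialis overlapped. Such a sum does not show which cells carry Sfrp2 and Sfrp4, which were chosen for their low soleus levels. In gastrocnemius the sum was 2459 to 3238 CPM in WT and 2477 to 3420 CPM in KO, and in EDL 3504 to 5313 and 3599 to 5412 CPM. Tendon markers (9 of 10 genes in the table, led by Fmod and Thbs4) were highest in EDL, at 915 to 1654 CPM in WT and 1075 to 1697 CPM in KO, against 437 to 607 and 415 to 610 CPM in gastrocnemius. Of the 9, 3 were called higher in EDL than in gastrocnemius in WT and 5 in KO, beside the higher Dkk3 and Wif1 there. No marker of these lists was near 0 in the muscles, and their part in the results was not tested.

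In the muscles, nerve sheath markers moved with Sfrp5. In WT lung the nerve sheath list summed to a mean of 833 CPM, and the mean of Sfrp5 was 0.835 CPM. A sum of the list does not show which cells its RNA came from, and its part in the Sfrp5 levels was not tested. The 8 genes of that list, with Pmp22 among its leading members, summed to 263 to 369 CPM in WT EDL, 195 to 398 in WT gastrocnemius, 85.1 to 638 in WT soleus and 79.4 to 138 in WT tibialis. In KO the ranges were 122 to 381, 215 to 284, 94.6 to 794 and 62.5 to 93.4 CPM. All 8 were called higher in EDL and in gastrocnemius than in tibialis in both genotypes. In WT soleus the sums of 638, 465, 139, 137 and 85.1 CPM came with 14.3, 13.3, 6.61, 4.95 and 4.71 CPM of Sfrp5. In KO soleus the sums of 794, 493.2, 325, 205 and 94.6 CPM came with 18.8, 12.6, 8.64, 7.13 and 4.58 CPM. The order of the mice was thus the same for both measures in each genotype.

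Within the 8 groups of muscle and genotype, pairs of mice were compared for whether a member and a marker sum stood in the same order, 80 pairs in all. For Sfrp5 and the nerve sheath list 66 of 80 pairs did, or 82.5%, although in KO gastrocnemius only 3 of 10 did. Wif1 and the tendon list shared the order in 67 of 80 pairs (83.8%) and Sfrp2 and the fibroblast list in 60 (75%). For the others the best list gave 58 pairs for Frzb, 57 for Sfrp1, 56 for Dkk2 and 56 for Sfrp4, all with the fibroblast list, and 53 for Dkk3 with the tendon list. Each list named is the best of 10 for its gene, picked after the values were seen, so these shares are descriptions.

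**Figure D4:**
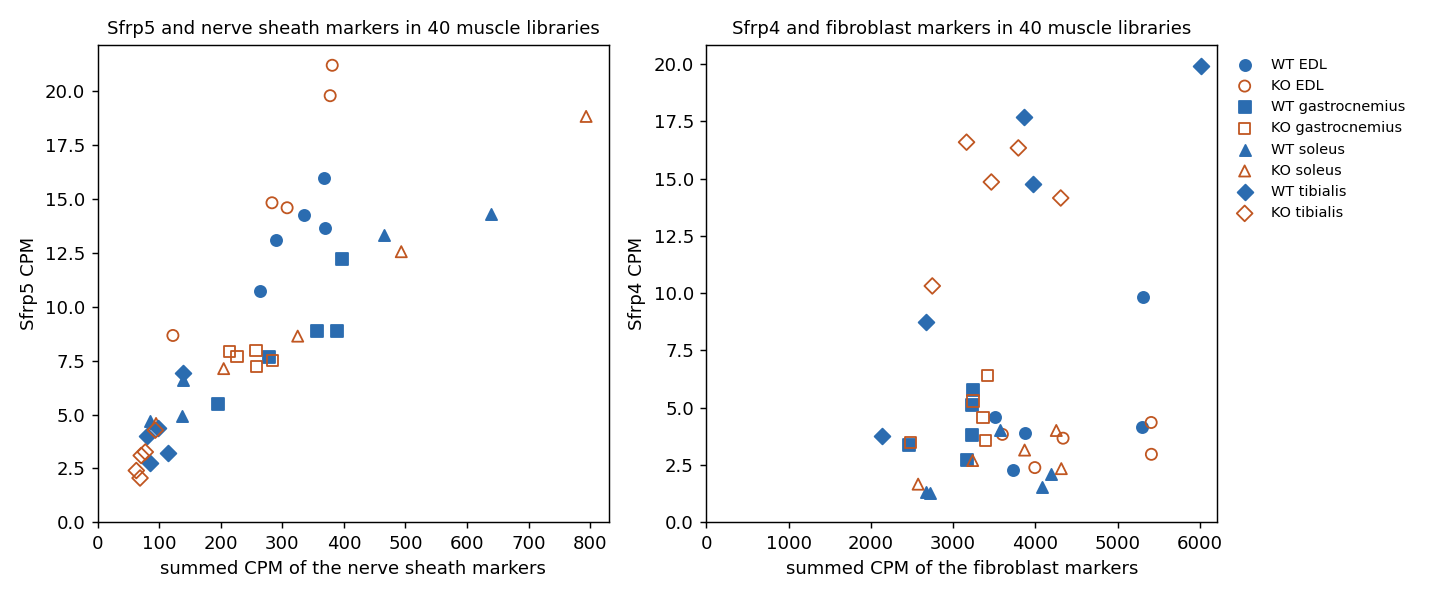
Left, Sfrp5 against the summed nerve sheath markers, and right, Sfrp4 against the summed fibroblast markers, both in CPM, in 40 muscle libraries. Filled blue symbols are WT, open orange KO, and shapes mark the muscle. Soleus libraries spread along one line on the left. On the right, tibialis libraries lie above soleus in Sfrp4, except that of WT mouse 3793553, which lies within the soleus range.

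None of the 8 antagonists passed the threshold between KO and WT in any of the 9 tissues. With edgeR, 0 members were called among 8 tested in EDL (0.00777% of all genes called), 8 in gastrocnemius (0.00792%), 7 in soleus (0.00771%) and 8 in tibialis (0.0081%). In heart, kidney, liver, lung and spleen 0% of all genes were called, with 6, 8, 2, 7 and 4 members tested. The members left out by the expression filter were Sfrp2 in soleus, Sfrp4 and Dkk2 in heart, Frzb in lung, all but Frzb and Dkk3 in liver, and all but Sfrp1, Frzb, Dkk2 and Dkk3 in spleen. At an unadjusted p under 0.05 there were 2 members in soleus, where 17.2% of all genes passed, and 1 in heart, where 3.13% did. No member did in EDL (4.58% of all genes), gastrocnemius (1.95%), tibialis (1.77%), kidney (3.35%), liver (1.57%), lung (2.06%) or spleen (0.846%). DESeq2 also called 0 members, with 4 of 58 member tests at an unadjusted p under 0.05, but in soleus it gave none of the 7 members an adjusted p. Without its independent filtering, an alternative added after that was seen, it called 0 of the 7.

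Dkk2 in soleus was the largest of these differences, with 24.0 ± 13.3 CPM in KO against 11.7 ± 4.56 CPM in WT (SD, n = 5 each). The 3 highest KO libraries, at 20.8, 29.4 and 44.4 CPM, were above every WT library, and the other 2 lay inside the WT range. KO over WT gave a log2 fold change of 0.98 (SE 0.37, unadjusted p = 0.0242, adjusted p = 0.247), with adjusted p from 0.123 to 0.469 over the alternatives. Without mouse 3805666 it was 0.65. Wif1 in soleus went the other way, from 8.84 ± 2.59 to 5.83 ± 1.78 CPM, with a log2 fold change of −0.65 (SE 0.22, unadjusted p = 0.0121, adjusted p = 0.238, from 0.121 to 0.433 over the alternatives). KO Wif1 was 3.73, 5.34, 8.29, 6.88 and 4.91 CPM and WT 7.53, 7.40, 9.004, 7.01 and 13.3 CPM, so 1 KO library lay inside the WT range. Marker lists leaned in the same libraries, with 0 genes of any list called by edgeR. Fold changes from WT to KO soleus were positive for 6 of 6 slow fibre markers (median 0.97), 7 of 7 macrophage markers (median 0.50), 6 of 6 smooth muscle and pericyte markers (median 0.39), 7 of 7 adipocyte markers (median 0.33), 8 of 8 nerve sheath markers (median 0.26) and 10 of 12 fibroblast markers (median 0.14). They were positive for 1 of 6 fast fibre markers (median −0.37) and 4 of 9 tendon markers (median −0.10). Their part in the Dkk2 and Wif1 differences was not tested.

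Whether the genotype difference in soleus differed from that in the other 3 muscles was tested over all 40 muscle libraries. The test, fitted by edgeR without a mouse term, called 0 genes, or 0%, and 16.4% of genes had an unadjusted p under 0.05. That count of genes depended on the fit. Genes were called with the mouse as a block, with DESeq2 and without some mice, as given in the last section. With the mouse as a block 0 members were called. Dkk2 gave 1.14 (SE 0.36, unadjusted p = 0.00349, adjusted p = 0.12, from 0.0519 to 0.527 over the alternatives) and 0.78 without mouse 3805666. Wif1 gave −0.67 (SE 0.27, unadjusted p = 0.0169, adjusted p = 0.192, from 0.109 to 0.517 over the alternatives) and −0.64 without that mouse. DESeq2 gave none of the 8 members an adjusted p in this test, and called 0 of 8 without its independent filtering.

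In heart, Dkk3 was 38.4, 32.8, 46.4, 41.5 and 28.4 CPM in WT and 64.2, 55.8, 62.0, 43.3 and 33.7 CPM in KO. In KO 3 libraries were above every WT library and 2 inside the WT range. The log2 fold change of 0.47 (SE 0.19, unadjusted p = 0.0372) had an adjusted p of 0.999. In the other tissues the member of smallest p was Sfrp2 in EDL (−0.78, SE 0.39), tibialis (0.54, SE 0.25) and kidney (0.38, SE 0.19), Sfrp4 in gastrocnemius (0.20, SE 0.21), Dkk3 in liver (0.18, SE 0.18) and spleen (0.20, SE 0.13), and Dkk2 in lung (−0.23, SE 0.18). All of these had unadjusted p over 0.05. On simulated counts of the same sizes, the same test recovered 91 to 99 of 100 genes changed 2-fold in each tissue. Of 100 genes changed 1.5-fold it recovered 47 in spleen, 62 in soleus, 70 in tibialis, 71 in EDL and 85 to 95 in the other 5 tissues, so smaller differences could be missed. The changed genes all had a mean of at least 5 CPM, so this recovery does not apply to members below that level in a tissue. They were drawn at random, so it also does not apply to a member whose mice spread widely. Dkk2 in soleus, with a log2 fold change of 0.98 (SE 0.37), was not called. Both sets of 100 were changed in the same counts, which makes adjusted p smaller than with few changed genes.

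**Figure D5:**
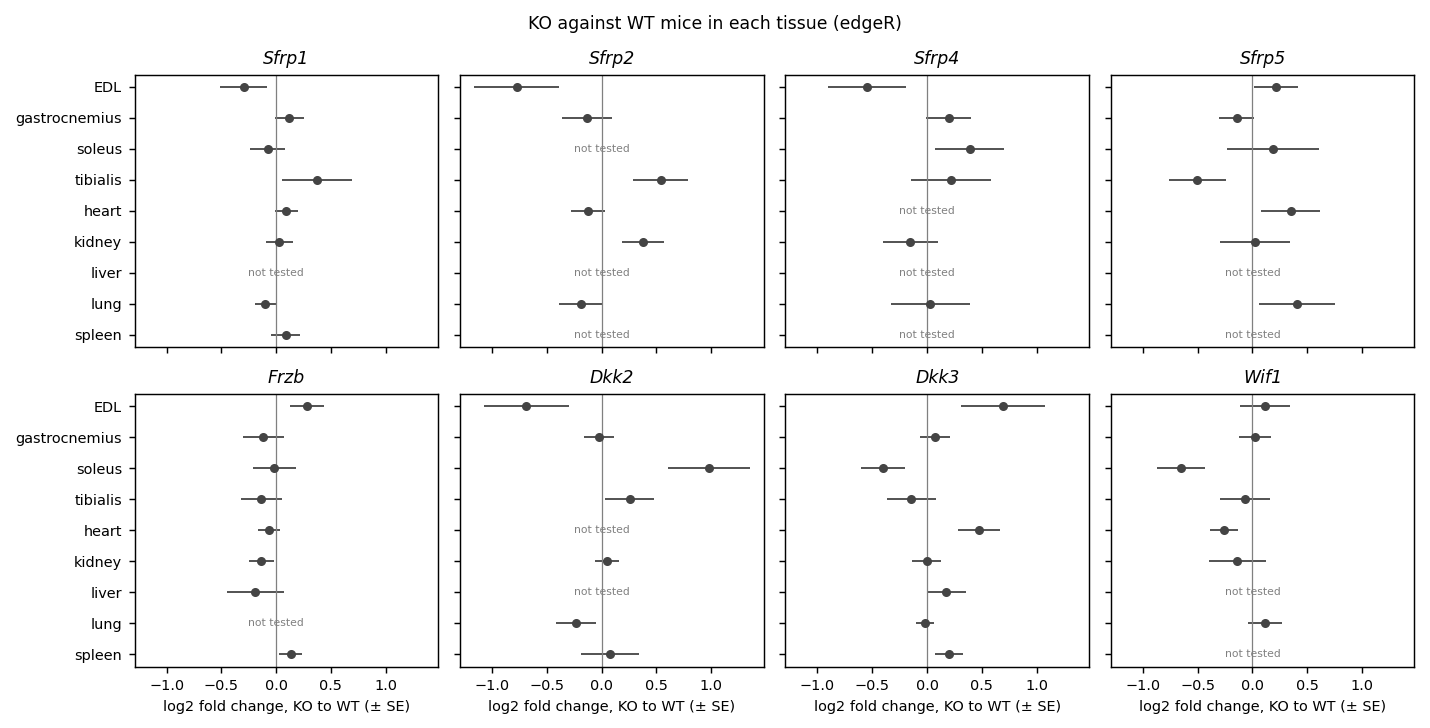
Log2 fold changes of the 8 antagonists from WT to KO in 9 tissues, ± SE. Members left out by the expression filter are marked as not tested; none had an adjusted p under 0.05 (edgeR), and the values farthest from 0 are Dkk2 in soleus, at 0.98, and Sfrp2 in EDL, at −0.78.

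The rest of the Wnt pathway was followed in a list of 85 further genes: ligands, receptors, agonists, other inhibitors, intracellular components and feedback targets. Against WT, KO mice had 0 of these called in each of the 9 tissues, with 47 (liver) to 69 (lung) tested by edgeR, and 0 of 63 in the test of soleus against the other muscles. At an unadjusted p under 0.05 there were 10 of 59 in soleus, where 17.2% of all genes passed, 9 of 63 in that test, where 16.4% did, and 0 to 3 in each of the other 8 tissues, so neither soleus count exceeded the share of all genes. Of the genes named by rule, in soleus Rspo3, a secreted agonist that stabilises Frizzled receptors, had 1.03 (unadjusted p = 0.00491, adjusted p = 0.238), and the receptor Fzd9 0.67 (unadjusted p = 0.0395, adjusted p = 0.272).

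Between the fast muscles genes of the list were called in each comparison. In WT, 10 were higher and 6 lower in EDL than in gastrocnemius, of 58 tested, 12 higher and 2 lower in EDL than in tibialis, and 13 higher and 5 lower in gastrocnemius than in tibialis, where 13.4%, 12.3% and 21.5% of all genes were called. In KO the counts were 14 and 11, 10 and 4, and 11 and 9, of 56 tested, where 28.4%, 18.9% and 34.2% of all genes were called, so the last count was close to the share of all genes. Axin2, a feedback inhibitor and common readout of beta-catenin signalling, was higher in WT EDL than in gastrocnemius (0.64, adjusted p = 0.00166) and tibialis (0.71, adjusted p = 0.00113). In KO it was higher in EDL than in tibialis (0.47, adjusted p = 0.0139), and the value of 0.31 over gastrocnemius was not called (adjusted p = 0.0568). Sfrp5 and Wif1 also had their highest means in EDL.

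Wnt9a, a ligand, was lower in WT EDL (−0.59, adjusted p = 0.00828) and WT gastrocnemius (−0.90, adjusted p = 0.000359) than in tibialis, and likewise in KO (−0.40, adjusted p = 0.00623, and −0.86, adjusted p = 6.44e-06). The ligand Wnt2, tested in KO, was also lower in EDL (−2.12, adjusted p = 0.000848) and gastrocnemius (−2.59, adjusted p = 0.000152) than in tibialis, the direction of Sfrp4. The receptor Fzd4 was higher in WT EDL (0.91, adjusted p = 0.00329) and gastrocnemius (0.57, adjusted p = 0.0265) than in tibialis, and the KO values of 0.65 (adjusted p = 0.181) and 0.45 (adjusted p = 0.312) were not called. Fzd9 was lower in WT EDL than in gastrocnemius (−0.81, adjusted p = 0.00232) and higher in gastrocnemius than in tibialis (0.74, adjusted p = 0.00348), and in KO likewise (−0.53, adjusted p = 0.00452, and 0.56, adjusted p = 0.00363). The co-receptor Lrp6, to which Dkk2 binds, was called in none of the 6 comparisons, and Lrp5 in 1, lower in KO gastrocnemius than in tibialis (−0.31, adjusted p = 0.0189).

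In soleus the other genes of the pathway were described by the same 2-fold rule, without a test. Of 51 with at least 1 CPM in WT, 6 were at least 2-fold the other 3 muscles and 0 were at most 1 in 2 of them. The 6 were the receptors Fzd9 and Fzd10, the ligands Wnt16 and Wnt5b, and Rspo3 and Lgr6, named after their values were seen. In KO 7 of 52 were higher, with Kremen1 added, and 1, Wnt4, was lower.

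Members were also compared by their pattern over the 18 group means, as Pearson's r of log2(mean CPM + 0.5) among 16415 genes. These values describe shared patterns over groups that include the same mice, and carry no test. Among the members, Sfrp5 and Wif1 were alike over the 18 groups, with r = 0.92, but over the 8 muscle groups alone their r was 0.44. Both had Vit, a gene of extracellular matrix, among their 3 closest genes, at 0.97 for Sfrp5 and 0.98 for Wif1. The other close genes were Stmn4 and Vat1l for Sfrp5, and Mpdz and Klhl7 for Wif1, each at 0.97 or 0.98. Sfrp1 was closest to Slc25a40 and Tbc1d22b (0.98 each) and Snx17 (0.97), Dkk3 to Igsf3 (0.95), Med9 (0.94) and Pcdhga7 (0.92), and Frzb to Noa1 and Trim7 (0.93 each) and Efhd1 (0.90). Sfrp4 was closest to Gm6981, Stk40 and Pou4f1 (0.94 each), and Dkk2 to Hoxc5 and Slc30a2 (0.92 each) and Tshr (0.91). Lama5 (0.90) and 2310067B10Rik (0.89) were among the 3 closest to Sfrp2. Over the 8 muscle groups alone, Sfrp1 and Sfrp2 had r = 0.90, Dkk3 and Wif1 0.88 and Sfrp2 and Sfrp4 0.85, while Dkk2 and Dkk3 had −0.81 and Sfrp4 and Sfrp5 −0.80.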

How the data were processed

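The authors deposited expected counts and RPKM for each library, whose protocols name polyA RNA, MagMax extraction and a KAPA stranded mRNA kit, per the labels, and mm10, per the submitters' processing notes. The aligner, the counter and whether strand was used are not given in the sources used here. Expected counts (85.6% whole numbers) were rounded for the tests. CPM were computed from them after leaving out 22 marker sequences that name no gene (0 to 0.0323% of a library). RPKM as deposited served only to compare genes, on which they matched values recomputed from the counts (ratio 0.9997 to 1).

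Each comparison was tested with edgeR 4.0.16 in R 4.3.3 (filterByExpr at 10 reads and a total of 15, TMM, robust quasi-likelihood), adjusted over all genes tested. Alternatives were DESeq2 1.42.0 and its size factors, every gene with at least 1 read, an age covariate or age-matched sets as a block, the mouse as a block, and leaving out each mouse. The animal IDs in the labels show that the muscles of a number are of 1 mouse: over 60 pairs of its libraries, deviations from group means correlated at a mean of 0.194, above 0.1 in 47. Replicates are separate mice, and no 2 replicate libraries were alike (at least 5.05 chi-square per gene over 172 pairs). Precision is limited by counting error at low levels: 3 reads correspond to at most 0.366 CPM.

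The members and lists were chosen with earlier results of these data known. Named were the 8 members, those called in each comparison or the 1 of smallest p, their 3 closest genes by pattern, 12 set genes of the Wnt list, Cdh15 and the 2 leading markers of a list; other names were chosen after their values were seen. A gene or more that this rule picks is not reported here. Each test was checked on simulated counts.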

Additional observations from a re-analysis of the deposited data

Results flagged for a closer look

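In 6 of 109 groups of member, tissue and genotype with a mean of at least 1 CPM, 1 mouse lay far from the others by Dixon's criterion, which chance meets in about 1 of 20 groups. Sfrp1 in KO lung was 21.4 CPM in mouse 3805676 against 19.4 to 19.96 CPM in the other 4, and in KO soleus 3.96 CPM in the same mouse against 2.57 to 2.92 CPM. Frzb in WT kidney was 27.4 CPM in mouse 3817948 against 18.2 to 19.7 CPM in the other 3. Dkk2 in WT spleen was 1.03 CPM in mouse 3793543, below the 1.46 to 1.52 CPM of the others. Dkk3 in WT soleus was 7.60 CPM in mouse 3793543 against 4.07 to 4.71 CPM, and in WT EDL 25.2 CPM in mouse 3805657 against 9.86 to 13.5 CPM.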

How the results depend on the processing

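KO and WT are different mice that share no number. With mice matched by age as a block of 5 sets, an alternative added after seeing the data, KO against WT called as many genes in each of the 9 tissues as without it, and 0 members. In the comparisons that share mice, the mouse as a replicate block called 2896 genes for WT EDL against gastrocnemius (1739 without it), 2829 for EDL against tibialis (1608), 4273 for gastrocnemius against tibialis (2801) and 591 for the soleus genotype test (0); beyond the member calls given above it changed none. For KO against WT, DESeq2 called 4 EDL, 2 gastrocnemius, 165 soleus and 4 kidney genes, where edgeR called 1, 1, 1 and 0, and 332 in the soleus genotype test. Without independent filtering, chosen after seeing the data, the soleus counts were 74 and 171. With no filter on low counts 1 gene was called in kidney. Leaving out 1 mouse gave 1 to 2 genes for KO against WT in each of EDL, gastrocnemius and soleus, 0 to 384 in the soleus genotype test, 808 to 1274, 690 to 1712 and 1589 to 2245 in the 3 WT comparisons, and 1526 to 2416 for KO EDL against tibialis (2421 with all mice). The cause was not tested. No value of a named member changed direction under the alternatives run. Calls were lost in 4 of 170 values with all mice and in 26 of 258 with a mouse left out. At low levels, as for Sfrp2 in soleus, counting error limits what can be seen.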
